A study of Mus musculus with 24 samples.

Results

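The LDL receptor family of lipoprotein receptors and the ubiquitin ligase that degrades some of its members were followed through 3 genes, Mylip, Lrp1 and Vldlr. The members were the rows whose symbol equals one of these names on a numbered chromosome, which gave 3 genes of the 47372 in the tables, and no second row carried any of the 3 symbols. Expression was measured by RNA sequencing in macrophages grown from mouse bone marrow, 3 mice labelled as double knockout (DKO) of LXRα and LXRβ and 3 mice labelled LXR positive. All 6 mice carry the strain label C57BL/6J and an age of 8 to 12 weeks, and each gave 1 library per treatment. The 8 groups of 3 libraries were therefore DKO and LXR-positive macrophages with GW3965 at 1 µM, AcLDL at 50 µg/ml, KLA at 100 ng/ml or vehicle. GW3965 is a synthetic agonist of the liver X receptors (LXR), and AcLDL is acetylated low-density lipoprotein that loads macrophages with cholesterol. KLA is a part of lipopolysaccharide that contains lipid A and activates TLR4. Vehicle, KLA and GW3965 were given on day 5 for 17 hours, while for AcLDL the duration was not given in the sources used here. No group lacks LXRα alone or LXRβ alone, so the parts of the receptors cannot be told apart.

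Mylip, also called Idol, encodes a RING E3 ubiquitin ligase that binds the cytoplasmic tails of lipoprotein receptors and marks them for breakdown in lysosomes. The gene is a known direct target of the liver X receptors, which sense oxidized cholesterol derivatives, and through it a cell that is rich in sterols takes up less lipoprotein. Vldlr, the very low density lipoprotein receptor, is a known substrate of the ligase and also a reelin receptor, and Lrp1, a large scavenging receptor that macrophages use to clear lipoprotein remnants, protease complexes and dying cells, is not among its known substrates. The values here are RNA levels, so the breakdown of receptor protein was not measured.

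Mylip (ENSMUSG00000038175) lies on GRCm38 chromosome 13 from 45389742 to 45412019 on the plus strand. Lrp1 (ENSMUSG00000040249) lies on chromosome 10 from 127538161 to 127621148 on the minus strand, and Vldlr (ENSMUSG00000024924) on chromosome 19 from 27216484 to 27254231 on the plus strand. All 3 are annotated as protein coding. Lrp1 overlaps Gm16217 on the opposite strand with 0 shared exon bases, and no annotated gene overlapped the other members.

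The 250 bases before the RefSeq start sites of Mylip and Lrp1 are shown because these were the members with called changes, both lower with KLA and only Mylip called higher with GW3965. They are read 5′ to 3′ on the strand of the gene from RefSeq's GRCm38.p6 assembly, at chr13:45389492-45389741 on the plus strand and chr10:127621149-127621398 on the minus strand, with matches to the searched motifs in capitals.
Mylip: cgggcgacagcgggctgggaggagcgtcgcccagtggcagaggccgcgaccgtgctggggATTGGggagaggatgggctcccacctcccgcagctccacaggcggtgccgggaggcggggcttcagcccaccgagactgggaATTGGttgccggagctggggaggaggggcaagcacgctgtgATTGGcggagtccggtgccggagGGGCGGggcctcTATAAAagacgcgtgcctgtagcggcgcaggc
Lrp1: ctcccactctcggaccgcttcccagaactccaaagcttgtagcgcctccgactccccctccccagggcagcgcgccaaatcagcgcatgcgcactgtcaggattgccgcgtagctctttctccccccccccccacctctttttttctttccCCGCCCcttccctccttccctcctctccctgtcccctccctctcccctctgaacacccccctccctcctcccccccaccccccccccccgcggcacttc

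The Mylip window had 71.2% G and C and the Lrp1 window 67.2%, against a median of 52.4% over 32851 such windows. Searched on both strands, the Mylip window held 3 CCAAT boxes (CCAAT, read on the reverse strand, in 33.8% of windows), a GC box (GGGCGG, 44 to 39 bases before the start site, in 32.7% of windows) and a TATA box (TATAAA, 32 to 27 bases before it, in 12.4%). The Lrp1 window held 1 GC box, on the reverse strand, and no CCAAT or TATA box. Neither window held the LXR response element searched, a direct repeat of AGGTCA spaced by 4 bases (in 0.0152% of windows), or a single AGGTCA (14.0% of windows), and neither held the searched consensus sites of NF-kB (0.14%) or of the sterol regulatory element (0.0731%). These searches cover the printed letters alone and leave more distant sequence unread.

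Values are the authors' normalized read counts, which whole reads divided by a factor per library reproduce, and 1 normalization covered all 24 libraries. The libraries held 9705391 to 27189081 reads in DKO and 6448579 to 17348717 in LXR-positive macrophages, so DKO libraries were mostly deeper and the ranges overlapped. With reads thinned to the shallowest library, the Mylip difference between DKO and LXR-positive libraries was -2.44 under GW3965, -1.49 under AcLDL, -1.58 under KLA and -0.76 under vehicle on the log2 scale, each still called by limma. Differences are on the log2(value + 1) scale with their standard errors, and a gene is called where its limma p, adjusted by the Benjamini-Hochberg method over all genes of that fit, is under 0.05. The 8 macrophage markers summed to 176588 to 364625 normalized counts in DKO and 249810 to 462654 in LXR-positive libraries, and none of them was at 0 in any library. Lyz2 was the highest of the 8 in every library, at 81053 to 312898, so it weighs most in these sums. Single macrophage markers were not compared between groups. Nr1h2, the LXRβ gene, ranged from 275 to 399 normalized counts in the 12 DKO libraries, against 438 to 821 in the 12 LXR-positive ones, and Nr1h3, the LXRα gene, from 123 to 751, against 114 to 1267. Which exons the knockout removes was not stated in the labels, so these sums over whole genes do not check them. In these bulk cultures, fewer cells of a type and less RNA per cell cannot be told apart.

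Levels of the 3 genes were first compared per kilobase of merged exon. In DKO vehicle libraries Lrp1 averaged 876 ± 148 normalized counts per kilobase, Mylip 226 ± 7.54 and Vldlr 2.40 ± 1.29 (SD, n = 3). In LXR-positive vehicle libraries Lrp1 averaged 529 ± 155, Mylip 382 ± 49.7 and Vldlr 1.70 ± 1.19. Lrp1 was the most abundant of the 3 in 7 of the 8 groups and Vldlr the least abundant in all 8. The exception was LXR-positive macrophages with GW3965, in which Mylip averaged 1326 ± 187 per kilobase and Lrp1 697 ± 159.

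**Figure D1:**
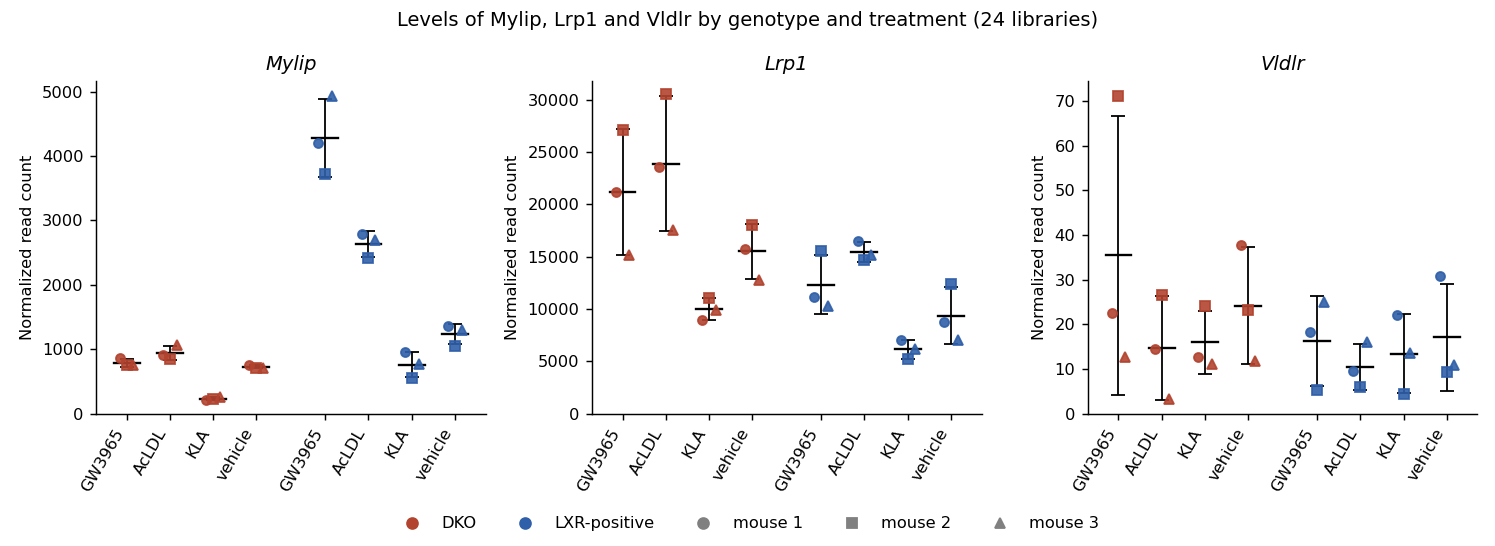
Normalized read counts of Mylip, Lrp1 and Vldlr (vertical axes, linear from 0, 1 panel per gene) in DKO (left, red) and LXR-positive (right, blue) macrophages with GW3965, AcLDL, KLA or vehicle. Symbols are libraries, with 1 shape per mouse number, and bars are the mean ± SD of 3. Mylip is at 2413 or more in the LXR-positive GW3965 and AcLDL libraries and at 1357 or less in all others, Lrp1 is lowest with KLA in each genotype, and Vldlr stays under 72 throughout.

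With the LXR agonist GW3965 the ligase gene was higher in LXR-positive cells. Mylip stood at 866, 759.7 and 757 normalized counts in the GW3965 libraries of DKO mice 1, 2 and 3, against 758, 716 and 717 in their vehicle libraries. In LXR-positive mice 1, 2 and 3 it stood at 4203, 3729.6 and 4930.05 with GW3965, against 1357, 1053 and 1295 with vehicle. The lowest LXR-positive GW3965 library lay above every library of the other 7 groups, while in DKO the lowest GW3965 library lay just under the highest vehicle library, so the groups overlapped. Among tested genes, 6.45% were higher and 7.16% lower with GW3965 in DKO without overlap, and 5.22% and 4.48% in LXR-positive cells.

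In DKO macrophages the log2 difference between GW3965 and vehicle was 0.12 ± 0.12 (limma adjusted p = 0.953, 95% interval -0.15 to 0.39), with 1 of 16116 genes, or 0.00621%, called in either direction. Each of the 3 DKO mice was higher with GW3965, by 1.06- to 1.14-fold. In LXR-positive macrophages the difference was 1.79 ± 0.12 (limma adjusted p = 1.7e-05), sixth by p among the genes tested, of which 40, or 0.248%, were called higher and 3, or 0.0186%, lower. Each of the 3 LXR-positive mice was higher, by 3.10- to 3.81-fold. The response differed between the genotypes by -1.68 ± 0.18 (DKO minus LXR-positive, limma adjusted p = 0.0014), with 0.112% of genes called lower in this contrast. The authors' deposited table gives -1.68 with an adjusted p of 4.0e-11 for the same interaction. Neither Lrp1 nor Vldlr was called in any of these 3 contrasts.

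Under GW3965 the genotype difference of Mylip was -2.42 ± 0.12 (DKO minus LXR-positive, limma adjusted p = 2.0e-06). It had the smallest p of the 16116 genes tested, of which 9.64% were called, 5.44% lower and 4.2% higher in DKO. Abcg1, the cholesterol exporter gene that came next by p, differed by -2.07 ± 0.11.

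In LXR-positive cells, loading with AcLDL also raised Mylip, by less than GW3965 did. Mylip stood at 917, 849 and 1070.03 normalized counts in the AcLDL libraries of DKO mice 1, 2 and 3, against 758, 716 and 717 with vehicle. In LXR-positive mice it stood at 2797, 2413 and 2696 with AcLDL, against 1357, 1053 and 1295 with vehicle. The AcLDL libraries lay above the vehicle libraries in both genotypes, without overlap, as did those of 5.83% of tested genes in DKO (5.67% lay below) and 7.56% in LXR-positive cells (9.3% below).

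The AcLDL difference was 0.37 ± 0.12 in DKO (limma adjusted p = 0.623, unadjusted p = 0.0091). In LXR-positive cells it was 1.10 ± 0.12 (limma adjusted p = 0.0019). Of 16026 genes, 2, or 0.0125%, were called higher in DKO and 16, or 0.0998%, in LXR-positive cells. Within mice, Mylip was 1.19- to 1.49-fold higher in DKO and 2.06- to 2.29-fold higher in LXR-positive cells, so all 6 mice moved the same way. The difference of the responses was -0.73 ± 0.17 (limma adjusted p = 0.997, unadjusted p = 8.8e-04), with 0.025% of genes called, 0.0187% lower and 0.00624% higher. The authors' deposited table gives -0.72 with an adjusted p of 0.621. Under AcLDL itself DKO macrophages had less Mylip than LXR-positive ones by -1.48 ± 0.12 (limma adjusted p = 8.8e-05, 8.6% of genes called, 4.85% lower). Between the agents, LXR-positive cells had 0.70 ± 0.15 more Mylip on the log2 scale with GW3965 than with AcLDL (limma adjusted p = 0.038, 0.509% of 17082 genes called, 0.381% higher and 0.129% lower). That call was lost without a filter on low values (adjusted p = 0.064) and in 9 of 24 fits that each left out 1 library, with adjusted p up to 0.162. Those libraries were LXR-positive GW3965 1 and 3, LXR-positive AcLDL 1, 2 and 3, LXR-positive KLA 3, DKO vehicle 1 and 2 and DKO AcLDL 1.

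KLA lowered the ligase gene in both genotypes. Mylip stood at 219, 227 and 253 normalized counts in the KLA libraries of DKO mice 1, 2 and 3, the 3 lowest of all 24 libraries, against 758, 716 and 717 with vehicle. In LXR-positive mice it stood at 962, 560.1 and 767 with KLA, against 1357, 1053 and 1295 with vehicle. In each genotype the KLA and vehicle libraries did not overlap, as was so for a lower level in 21.5% of tested genes in DKO and 18% in LXR-positive cells.

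The KLA difference was -1.64 ± 0.17 in DKO (limma adjusted p = 2.9e-05). In LXR-positive cells it was -0.72 ± 0.17 (limma adjusted p = 0.0077). With KLA 25.2% of 15957 genes were called in DKO and 28.6% in LXR-positive cells, 11.1% and 12.4% of all genes as lower, so that a call in this direction was common. Within mice Mylip fell to 0.289 to 0.354 of its vehicle level in DKO and to 0.532 to 0.708 in LXR-positive cells. The responses differed by -0.92 ± 0.24 (DKO minus LXR-positive), with an unadjusted p of 0.0025 and a limma adjusted p of 0.647, and 0.0689% of genes were called lower. The authors' deposited table gives -0.95 ± 0.22 and an adjusted p of 0.0102 for this interaction. With DESeq2 on the recovered reads of the 12 libraries the adjusted p was 0.0967, and without LXR-positive KLA library 2 limma called it (-1.13, adjusted p = 0.049). Under KLA, DKO macrophages had less Mylip than LXR-positive ones by -1.67 ± 0.17 (limma adjusted p = 7.0e-04, 6.87% of genes called, 3.87% lower).

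Without any agent, Mylip was already lower in DKO macrophages. The vehicle libraries of mice 1, 2 and 3, given above, did not overlap between genotypes, as was so for a lower level in DKO in 10.1% of tested genes. The log2 difference was -0.75 ± 0.12 (limma adjusted p = 0.027), 1 of 12 genes, or 0.0745% of 16116, called lower in DKO. The call was lost in 6 of 12 fits that left out 1 library, namely LXR-positive vehicle 1 or 3, LXR-positive GW3965 1 or any of the DKO vehicle libraries, with adjusted p up to 0.144 and differences from -0.86 to -0.68.

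Other genes that LXR is known to switch on went the other way in vehicle. Abca1, a transporter that loads cholesterol onto nascent lipoprotein particles, stood at 14347, 16732 and 14223 normalized counts in DKO vehicle libraries, against 9154, 8698 and 8200.07 in LXR-positive ones. Its log2 difference was 0.80 ± 0.10 (limma adjusted p = 0.0053). Abcg1, another cholesterol exporter, was 0.60 ± 0.11 higher in DKO vehicle libraries (limma adjusted p = 0.044) and Srebf1, a transcription factor of fatty acid synthesis, 0.91 ± 0.15 higher (limma adjusted p = 0.025), where 0.316% of genes were called and 0.242% were higher. The Abcg1 call was lost in 11 of 12 fits that left out 1 library, all but that without DKO vehicle 3 (adjusted p up to 0.203), without a filter (0.075) and with all 24 libraries (0.0901). The Srebf1 call was lost without LXR-positive vehicle 3 or DKO vehicle 2 or 3 (adjusted p up to 0.133). Mylip was thus the 1 gene of these 4 that was lower in DKO under vehicle as well as under GW3965. With KLA the 4 genes separated again. In DKO macrophages Abcg1 fell by 1.94 on the log2 scale (limma adjusted p = 1.4e-05) and Mylip fell, whereas Abca1 had -0.04 ± 0.14 and Srebf1 0.06 ± 0.19, neither called. In LXR-positive macrophages Srebf1 rose by 1.50 ± 0.19 on the log2 scale (limma adjusted p = 1.0e-04), Mylip fell, and Abca1 (0.18 ± 0.14) and Abcg1 (-0.04 ± 0.18) were not called. The 3 genes were chosen as known LXR targets with their results in view.

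**Figure D2:**
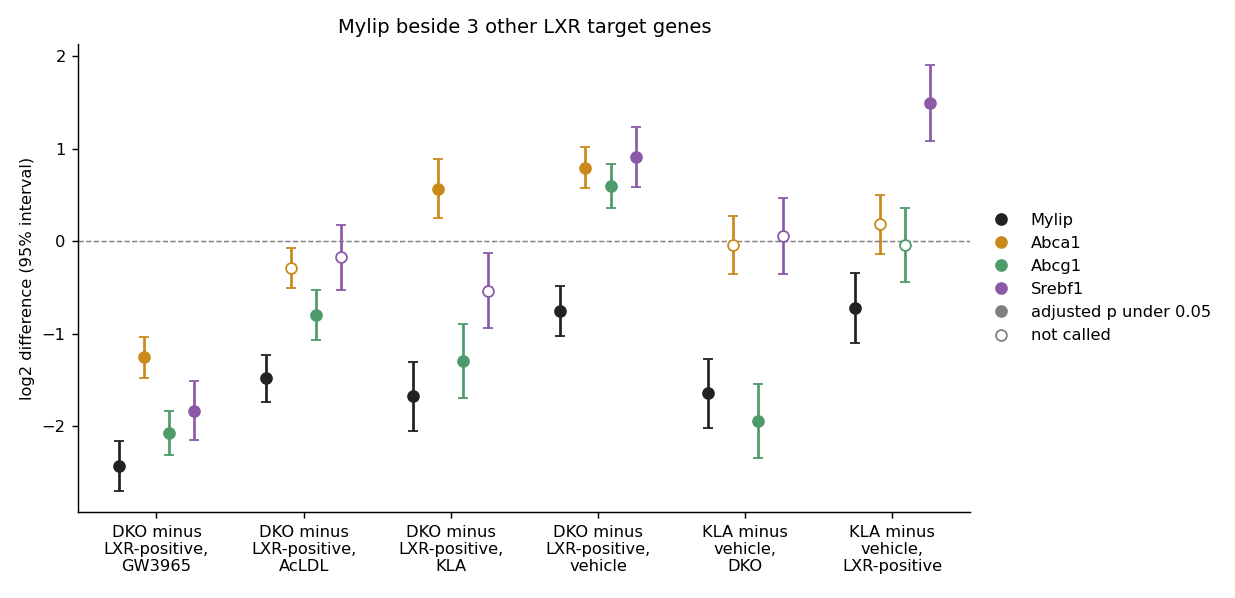
Log2 differences (vertical axis) of Mylip, Abca1, Abcg1 and Srebf1 between DKO and LXR-positive macrophages under each treatment and between KLA and vehicle in each genotype (horizontal axis), with 95% intervals from limma, n = 3 libraries per group. Filled symbols passed an adjusted p of 0.05. All 4 genes lie below 0 under GW3965, and Mylip alone lies below 0 under vehicle.

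Over the 8 groups, mean Mylip ran from 4288 ± 605 (LXR-positive, GW3965) through 2636 ± 199 (LXR-positive, AcLDL), 1235 ± 161 (LXR-positive, vehicle), 945 ± 113 (DKO, AcLDL), 794 ± 61.8 (DKO, GW3965), 763 ± 201 (LXR-positive, KLA) and 730.4 ± 24.4 (DKO, vehicle) to 233 ± 17.9 (DKO, KLA; SD, n = 3). The 3rd to 7th of these overlapped with their neighbours in that order, and the first, the second and the last stood clear of theirs. A pattern like that of Mylip, by Pearson's r on the log2 scale over the 24 libraries among 10731 genes averaging at least 50 normalized counts, was closest in Tmem86a (r = 0.923), Ado (0.920), Susd1 (0.913), Rab39 (0.912) and Scarb2 (0.908), the last a lysosomal membrane protein. Over the 8 group means Map2k5 (0.978) and Rab39 (0.978) led instead, so Rab39 was in both sets of 5. These libraries share mice and vehicle controls.

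Lrp1, the more abundant receptor among the members, was lower with KLA in both genotypes and had its highest levels in DKO cells. With KLA it stood at 8969.9, 11076 and 9878 normalized counts in DKO mice 1, 2 and 3, against 15754, 18013 and 12789.6 with vehicle. In LXR-positive mice it stood at 7041, 5226 and 6169 with KLA, against 8764, 12379 and 6997 with vehicle. The KLA libraries lay below all vehicle libraries in DKO, as did those of 21.5% of tested genes. In LXR-positive cells the highest KLA library exceeded the lowest vehicle library.

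The KLA difference was -0.63 ± 0.20 in DKO (limma adjusted p = 0.037). In LXR-positive cells it was -0.58 ± 0.20 (limma adjusted p = 0.047), and the responses differed by -0.05 ± 0.28 (95% interval -0.66 to 0.57). All 6 mice were lower with KLA, at 0.569 to 0.772 of vehicle in DKO and 0.422 to 0.882 in LXR-positive cells. With KLA 11.1% of all genes were called lower in DKO and 12.4% in LXR-positive cells. Both Lrp1 calls lay close to the threshold, and DESeq2 also made both (adjusted p = 0.0086 in DKO and 0.0104 in LXR-positive cells). In DKO it was lost without a filter (adjusted p = 0.067) and without LXR-positive vehicle 1, DKO vehicle 1 or 2 or DKO KLA 1 or 3 (adjusted p up to 0.132). In LXR-positive cells it was lost without a filter (0.083), with all 24 libraries in 1 fit (0.062), with reads thinned to equal depth (0.051), with the mouse as a block (0.055), and without LXR-positive vehicle 1 or 2, LXR-positive KLA 2 or 3, DKO vehicle 1 or any DKO KLA library (up to 0.173). Macrophage marker sums, in which Lyz2 weighs most, moved the other way. They stood at 319211 to 364625 normalized counts with KLA against 233696 to 242486 with vehicle in DKO. In LXR-positive cells they stood at 399392 to 462654 against 282326 to 332965. Their part in the Lrp1 result was not tested.

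With the lipid-loading agent Lrp1 was higher in every mouse, short of the threshold. It stood at 23614, 30538 and 17602 normalized counts with AcLDL in DKO mice 1, 2 and 3, against 15754, 18013 and 12789.6 with vehicle. In LXR-positive mice it stood at 16481, 14709.7 and 15162 with AcLDL, against 8764, 12379 and 6997 with vehicle. The LXR-positive AcLDL libraries all lay above their vehicle libraries, as did those of 7.56% of tested genes, whereas the DKO ones overlapped. Within mice the ratio was 1.38 to 1.70 in DKO and 1.19 to 2.17 in LXR-positive cells. The log2 difference was 0.60 ± 0.22 in DKO (limma adjusted p = 0.696) and 0.76 ± 0.22 in LXR-positive cells (limma adjusted p = 0.21, unadjusted p = 0.0053), the second of which DESeq2 called (adjusted p = 0.048). With the mouse as a block both standard errors were 0.15 (limma adjusted p = 0.186 in DKO and 0.052 in LXR-positive cells).

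GW3965 gave a smaller difference of the same sign in both genotypes. Lrp1 stood at 21212, 27155 and 15166 normalized counts with GW3965 in DKO mice 1, 2 and 3, against the same vehicle libraries as above. In LXR-positive mice it stood at 11169, 15562 and 10295 with GW3965. Within mice the ratio to vehicle was 1.19 to 1.51 in DKO and 1.26 to 1.47 in LXR-positive cells, while the groups overlapped in both genotypes. The log2 difference was 0.42 ± 0.25 in DKO (limma adjusted p = 0.896) and 0.41 ± 0.25 in LXR-positive cells (limma adjusted p = 0.836). With the mouse as a block both standard errors were 0.098 (limma adjusted p = 0.442 in DKO and 0.212 in LXR-positive cells). The responses of the genotypes differed by 0.01 ± 0.35 (95% interval -0.76 to 0.78), with a standard error of 0.14 under the block. The authors' deposited table gives 0.05 with an adjusted p of 0.999. The 3 treatments share their vehicle libraries, so these ratios are not independent of each other.

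**Figure D3:**
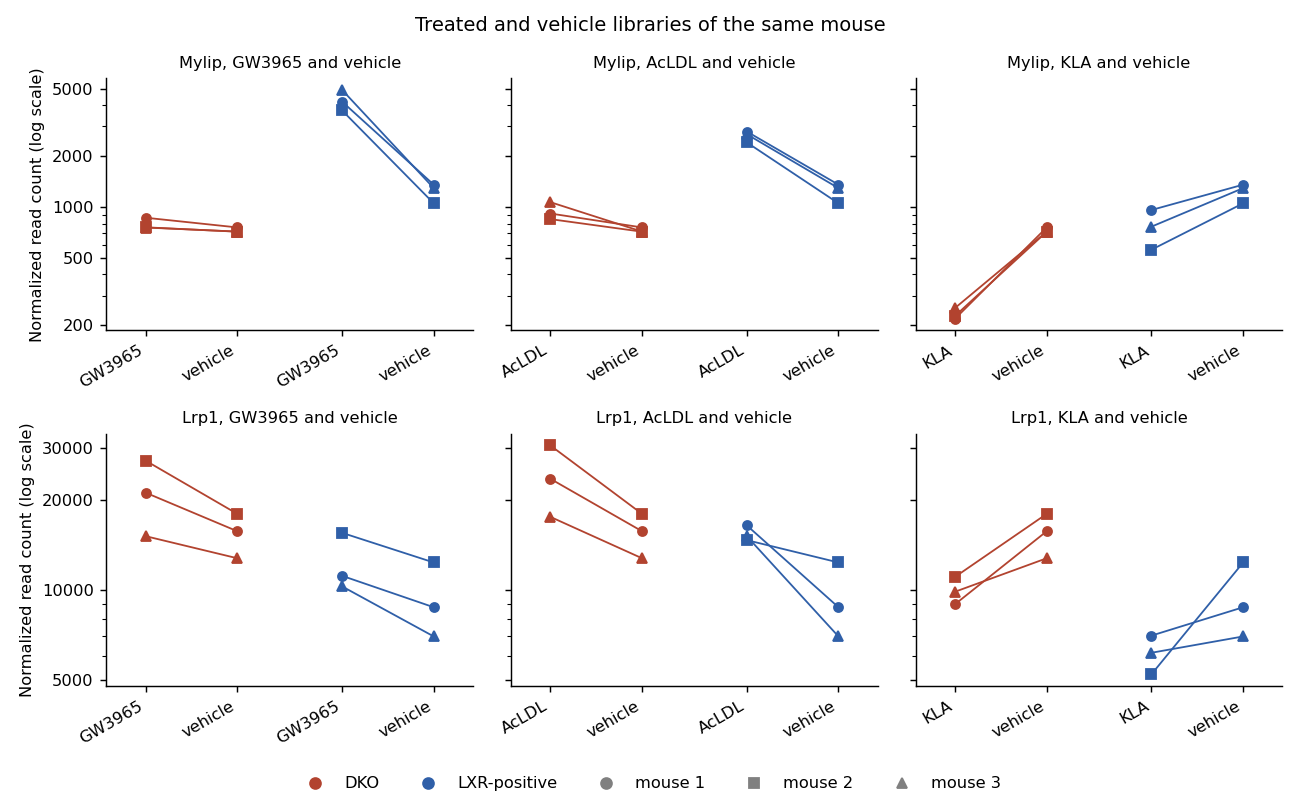
Normalized read counts (vertical axes, log scale) of Mylip (top) and Lrp1 (bottom) in the treated (left end) and vehicle (right end) library of each mouse, with DKO mice in red, LXR-positive mice in blue and 1 line per mouse. All 6 lines fall towards vehicle for GW3965 and AcLDL and climb towards vehicle for KLA, steeply for Mylip with GW3965 only in LXR-positive mice.

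DKO macrophages had more Lrp1 than LXR-positive ones under all 4 treatments, by differences that limma did not call. The same 3 mice per genotype gave all 4 contrasts, so these are not independent of each other. The log2 difference was 0.76 ± 0.25 under GW3965 (limma adjusted p = 0.074), 0.60 ± 0.22 under AcLDL (0.117), 0.70 ± 0.20 under KLA (0.054) and 0.75 ± 0.25 under vehicle (0.278), where 4.2%, 3.76%, 3.01% and 0.242% of genes were called higher in DKO. The DKO libraries lay above the LXR-positive ones without overlap under AcLDL, KLA and vehicle, as did those of 15%, 12.9% and 7.58% of genes, and overlapped under GW3965. DESeq2 on recovered reads called the first 3 (adjusted p = 0.0198, 0.041 and 0.011) and not the vehicle difference (0.104). In limma, leaving out DKO GW3965 3 (0.98, adjusted p = 0.038), DKO AcLDL 3 (0.799, 0.048) or LXR-positive vehicle 2 or 3 (0.70 under KLA, 0.027 and 0.043) gave a call in that treatment. Within DKO, mouse 2 had the most Lrp1 under every treatment, and mouse 3 the least under GW3965, AcLDL and vehicle.

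Summed markers of macrophages and of other cells were also set side by side for the genotypes, without a test. The 8 macrophage markers summed to less in every DKO group than in the matching LXR-positive group, for example 233696 to 242486 against 282326 to 332965 normalized counts under vehicle. Lyz2 weighs most in this sum, and the 8 were not compared singly. The 9 neutrophil markers summed to 3228 to 11217 in DKO and 1959.6 to 6293 in LXR-positive libraries, with Ly6g at 0 in 6 of 24. The 8 stromal markers summed to 247 to 8619.5 in DKO and 95.3 to 1273 in LXR-positive libraries, with Lum at 0 in 10 of 24. Between the genotypes the stromal sums overlapped under AcLDL, KLA and vehicle but not under GW3965. The neutrophil sums were higher in DKO without overlap under each treatment. In DKO the stromal sum was highest in mouse 2 and lowest in mouse 3 under each treatment. The part of these markers in the Lrp1 result was not tested.

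Over the 8 groups, mean Lrp1 ran from 23918 ± 6473 (DKO, AcLDL) through 21177 ± 5995 (DKO, GW3965), 15519 ± 2619.6 (DKO, vehicle), 15451 ± 921 (LXR-positive, AcLDL), 12342 ± 2822 (LXR-positive, GW3965), 9975 ± 1056 (DKO, KLA) and 9379.9 ± 2744 (LXR-positive, vehicle) to 6145 ± 908 (LXR-positive, KLA; SD, n = 3). Every group overlapped with its neighbours in that order. Syne1 (r = 0.920), Nptn (0.916), Cep128 (0.909), Chst3 (0.906) and Cd36 (0.901), a scavenger receptor for oxidized lipoprotein, had the most similar pattern over the 24 libraries. None of these 5 was among the 5 closest over the 8 group means, which Cdk17 (0.990) led.

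Vldlr, the ligase substrate among the members, was near the limit of detection. Libraries held 3 to 89 reads of it. It stood at 22.6, 71.1 and 12.7 normalized counts with GW3965 in DKO mice 1, 2 and 3, at 14.5, 26.5 and 3.22 with AcLDL, at 12.8, 24.0 and 11.0 with KLA and at 37.7, 23.1 and 11.7 with vehicle. In LXR-positive mice it stood at 18.3, 5.35 and 25.1 with GW3965, at 9.57, 5.94 and 16.1 with AcLDL, at 22.2, 4.49 and 13.7 with KLA and at 30.9, 9.34 and 11.0 with vehicle. Each of the 8 groups overlapped with the next in order of the mean.

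Vldlr was not called in any of the 14 comparisons. The log2 difference between GW3965 and vehicle was 0.32 ± 0.71 in DKO (95% interval -1.24 to 1.88) and -0.10 ± 0.71 in LXR-positive cells (-1.66 to 1.45). With AcLDL it was -0.91 ± 0.70 in DKO and -0.55 ± 0.70 in LXR-positive cells, and with KLA -0.51 ± 0.62 and -0.36 ± 0.62. Under vehicle the genotypes differed by 0.53 ± 0.71 (95% interval -1.03 to 2.09). For GW3965 in LXR-positive cells the interval holds more than a doubling and more than a halving, so changes of that size could not be told from none in these 3 mice per group. The highest Vldlr value, in DKO mouse 2 with GW3965, fell in the library with the highest stromal sum (8619.5), and Acta2 (r = 0.686), Ctgf (0.673) and Postn (0.669), genes of smooth muscle and stromal cells, were among the 5 genes with the most similar pattern, behind Bhlhe40 (0.716) and with Enah (0.683). Postn is also on the stromal marker list, and the part of stromal cells in the Vldlr values was not tested.

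**Figure D4:**
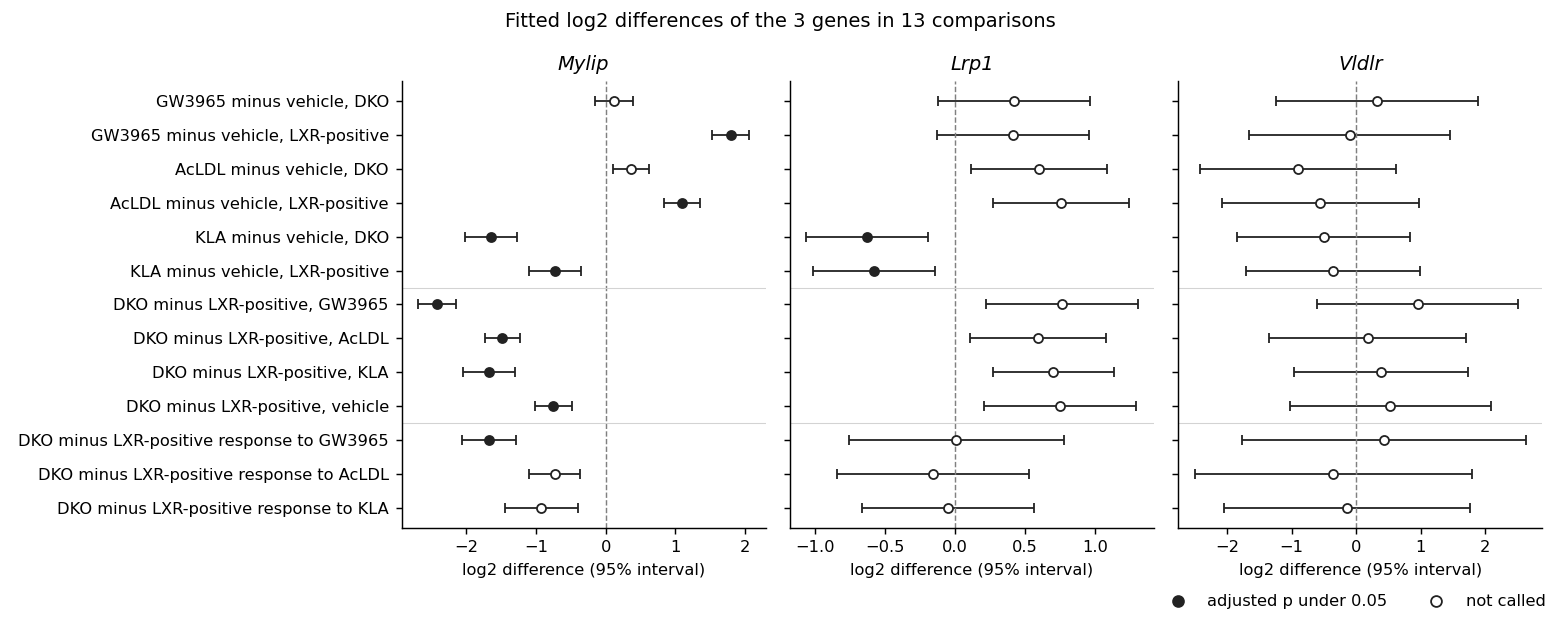
Log2 differences (horizontal axes) with 95% intervals from limma for Mylip, Lrp1 and Vldlr in 13 comparisons (rows), treated minus vehicle on top, DKO minus LXR-positive in the middle and differences of the responses at the bottom, n = 3 libraries per group. Filled symbols passed an adjusted p of 0.05. Mylip has 9 filled symbols, Lrp1 has 2, both with KLA, and Vldlr has none.

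No listed partner of these genes was called with the LXR agonist or with AcLDL. Of 43 listed receptors, ligase partners, chaperones, adaptors, proteases and ligands, 35 were tested with GW3965 and 37 with AcLDL, and limma called 0 in either genotype or in the difference of the responses. Of all genes, 0.00621% in DKO and 0.267% in LXR-positive cells were called with GW3965, 0.125% and 0.225% with AcLDL. At an unadjusted p under 0.05, 2 of the 35 (5.71%) passed in DKO and 1 (2.86%) in LXR-positive cells with GW3965, beside 5.83% and 6.13% of all genes. With AcLDL 4 of the 37 (10.8%) passed in DKO and 8 (21.6%) in LXR-positive cells, beside 6.26% and 12.3% of all genes. The median log2 difference of the list with GW3965 was 0.06 in DKO, against 0.00 over all genes, and -0.02 in LXR-positive cells, the same as over all genes.

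KLA changed many of them. In DKO 8 of 37 tested genes were higher and 8 lower, where 14% and 11.1% of all genes were called, and in LXR-positive cells 9 were higher and 6 lower, where 16.2% and 12.4% were. The median of the list was 0.20 in DKO and 0.09 in LXR-positive cells, against 0.00 over all genes in both. None of the 37 was called by limma in the difference of the KLA responses, in which 2 (5.41%) had an unadjusted p under 0.05, beside 5.36% of all genes.

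Among the 9 other receptors tested, Lrp6, a co-receptor of Wnt, had the firmest fall. It averaged 1934.5 ± 130.2 normalized counts with KLA against 3999.9 ± 408 with vehicle in DKO (log2 difference -1.04 ± 0.11, limma adjusted p = 3.4e-05), and 2214 ± 269 against 4822 ± 141 in LXR-positive cells (-1.13 ± 0.11, adjusted p = 1.8e-05). Lrp5, its close relative in Wnt signalling, fell by 0.50 in DKO and by 0.83 in LXR-positive cells (limma adjusted p = 0.027 and 0.0012). Lrp10, a sorting receptor of the Golgi and endosomes, rose by 0.73 and 0.75 (0.0031 and 0.0023). Lrp8, a reelin receptor and another known substrate of the ligase, averaged 159 ± 44.1 normalized counts with KLA against 116 ± 17.2 with vehicle in DKO (0.43 ± 0.29, adjusted p = 0.321). In LXR-positive cells it rose, with 339 ± 147 against 71.6 ± 6.03 (2.13 ± 0.29, limma adjusted p = 1.8e-04). The difference between these Lrp8 responses was -1.71 ± 0.41, with a limma adjusted p of 0.487. In DKO Lrp4, the agrin co-receptor of the neuromuscular junction, fell by 0.70 and Lrp11 rose by 0.94 (limma adjusted p = 0.037 and 0.044). Neither was called in LXR-positive cells or in the difference of the responses. Lrp2, Lrp12 and Sorl1 were not called with KLA, at -0.31 ± 0.44, -0.52 ± 0.20 and 0.03 ± 0.17 in DKO and -0.60 ± 0.44, -0.36 ± 0.20 and -0.10 ± 0.17 in LXR-positive cells.

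Around the receptors, the largest rise called was that of a protease. Mmp14, a membrane metalloprotease known to shed Lrp1, averaged 10982 ± 969 normalized counts with KLA against 1094 ± 249 with vehicle in DKO (3.35 ± 0.23, limma adjusted p = 1.4e-06), and 12079 ± 1096 against 1230.2 ± 409 in LXR-positive cells (3.35 ± 0.23, adjusted p = 1.2e-06). Adam17, another sheddase, rose by 0.58 in DKO and by 0.61 in LXR-positive cells. Adam10 fell by 0.30 in DKO. Of the chaperones and adaptors, Lrpap1, the receptor-associated protein that escorts Lrp1 through the secretory pathway, rose by 0.76 and 0.70, and Dab2, an endocytic adaptor of receptor tails, fell by 1.60 and 1.45. Shc1, a signalling adaptor, rose by 0.53 in LXR-positive cells.

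Among the ligands Calr, which Lrp1 binds at the cell surface, rose by 1.24 in DKO and 1.37 in LXR-positive cells, and Lpl, lipoprotein lipase, fell by 2.34 and 1.43. Plau, urokinase, fell by 3.68 in DKO, with -1.45 ± 0.61 in LXR-positive cells (limma adjusted p = 0.099), and Tfpi, an inhibitor of coagulation, rose by 0.93 in LXR-positive cells. On the side of the ligase, Ube2d1, a ubiquitin-conjugating enzyme of the family that works with Mylip, fell by 0.44 and 0.50 in DKO and LXR-positive cells. Epn1, an endocytic adaptor for ubiquitin-tagged cargo, fell by 0.52 in LXR-positive cells, and Hgs, which sorts such cargo to lysosomes, rose by 0.32 in DKO. All changes named as rises or falls in these paragraphs passed limma with an adjusted p under 0.05. A rise or fall named in only 1 genotype was not called in the other. No listed partner was called in the difference of the KLA responses, so such changes were not shown to differ between the genotypes. Leaving out 1 library ended the calls of Ube2d1 in 8 of 12 fits and Hgs in 9 of 12 in DKO, of Lrp11 in 6 of 12 in DKO, and of Lrp4, Lrp5, Lrpap1 and Adam10 in DKO and Ube2d1, Epn1, Lrpap1, Shc1, Lpl and Tfpi in LXR-positive cells in 1 to 4 of 12 fits each. Of 8 other settings, 5 ended the call of Hgs (adjusted p up to 0.089), 3 those of Lrp11 and Ube2d1 (up to 0.113 and 0.0697), and 1, the omitted filter, those of Lrp4 and Adam10, all in DKO.

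**Figure D5:**
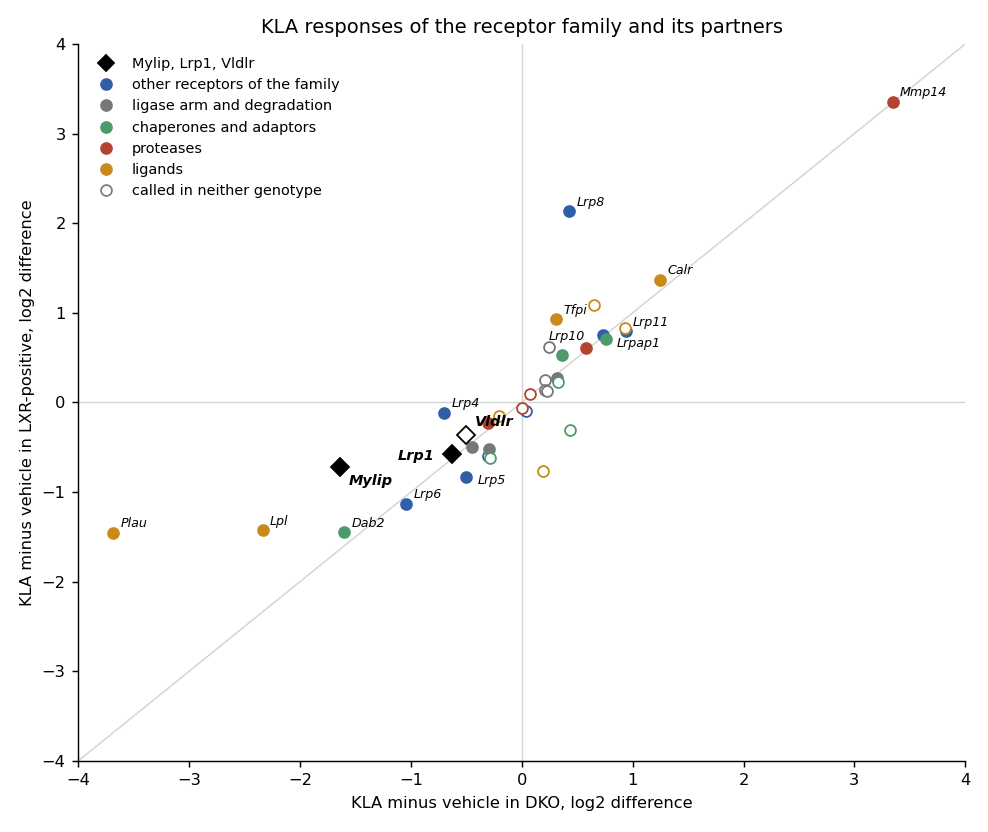
Log2 difference between KLA and vehicle in DKO (horizontal axis) and LXR-positive macrophages (vertical axis) for Mylip, Lrp1 and Vldlr (diamonds) and 35 of the 37 listed partner genes tested (circles, coloured by role), each from 3 libraries per group. Open symbols were called in neither genotype, and the diagonal marks equal responses. Most genes lie near the diagonal, and Lrp8, Mylip, Lpl and Plau lie above it, Mylip at -1.64 in DKO and -0.72 in LXR-positive cells.

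Between the genotypes limma called 5 of 35 partners under GW3965, 4 of 37 under AcLDL and 1 of 37 under KLA. Of all genes, 9.64%, 8.6% and 6.87% were called in these contrasts. At an unadjusted p under 0.05, 34.3%, 29.7% and 16.2% of the partners passed, beside 27.3%, 26.2% and 24.1% of all genes. Mesd, a chaperone of Lrp5 and Lrp6, was higher in DKO under GW3965, AcLDL and KLA, by 1.13 ± 0.25, 1.14 ± 0.21 and 1.23 ± 0.27 (limma adjusted p = 0.0197, 0.012 and 0.024). Lrpap1 was higher in DKO under GW3965 (0.55 ± 0.15) and AcLDL (0.57 ± 0.11), both with limma adjusted p under 0.05. Under GW3965 Lrp6 was lower in DKO (-0.56 ± 0.10) and Thbs1, a ligand of Lrp1, higher (1.25 ± 0.34). Under AcLDL Lrp2 was higher (1.64 ± 0.44), on 12 to 21 reads in each DKO AcLDL library and 1 to 3 in each LXR-positive one. That value was 0.83 with a pseudocount of 8, and the call was lost without a filter (adjusted p = 0.081) and with thinned reads (0.212). Leaving out 1 library ended the calls of Mesd in 4, 2 and 5 of 12 fits under GW3965, AcLDL and KLA, of Lrp2 in 9 of 12, Thbs1 in 7 of 12, and Lrpap1 in 6 of 12 under GW3965 and 2 of 12 under AcLDL. Of 8 other settings, 3 ended the Thbs1 call, 3 the Lrpap1 call under GW3965 and 1 that under AcLDL, and none ended those of Mesd. Under vehicle limma called 0 of 35, of which 7 (20%) had an unadjusted p under 0.05, beside 12.2% of all genes.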

How the data were processed

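RNA of 24 libraries (500 ng input, SMARTer Stranded kit, per the labels' protocols; single-end 50 bp reads, per the series' design text) was quantified with kallisto and DESeq2 on GRCm38, per the submitters' processing notes. Versions, annotation and strand setting were not given in the sources used here. All 3 deposited tables hold the authors' normalized counts, a signal of whole reads divided by a factor per library. In every library 100% of values were whole reads within 0.01 read. The 12 repeated vehicle columns were identical, so 1 normalization covers all libraries. The authors' log2 differences, standard errors, Wald scores and p-values for interactions were deposited in the same tables. The samples and covariates of their model were not given in the sources used here. Libraries held 6448579 to 27189081 reads.

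From these values limma 3.58.1 (R 4.3.3, trend) was fitted to log2(value + 1) over the 12 libraries of each table, 4 groups of 3, on genes with at least 10 normalized counts in at least 3 libraries, with Benjamini-Hochberg adjustment and a threshold of 0.05. The vehicle contrast came from the GW3965 table and GW3965 against AcLDL from all 24. The fit was also run on simulated reads without mouse effects or genotype differences under vehicle, so that run did not cover these. Alternatives were edgeR 4.0.16, DESeq2 1.42.0, TMM scaling, a pseudocount of 8, no filter, all 24 libraries, thinned reads, the mouse as a block and each library left out. The design text gives 6 mice with 4 treatments, so equal numbers within a genotype are 1 mouse. Their deviations correlated at a median r of 0.266 (36 pairs, -0.00507 to 0.506). Each mouse is a replicate. Named were the 3 members in every comparison, listed partners called in any treatment comparison and every tested receptor. Some listed genes are counted but not reported here by name. Members and lists were chosen with earlier results of these data known. RefSeq sequences (GRCm38.p6) matched all 3 members. Protein sequences were not analysed here.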

Additional observations from a re-analysis of the deposited data

Results flagged for a closer look

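The response of Mylip to GW3965 differed between the genotypes by -1.68 on the log2 scale (DKO minus LXR-positive, limma adjusted p = 0.0014 in the test of the difference itself). All 3 DKO mice were higher with GW3965 than with vehicle, by 1.06- to 1.14-fold, and all 3 LXR-positive mice by 3.10- to 3.81-fold.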

How the results depend on the processing

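The Mylip calls with GW3965, AcLDL and KLA, and between genotypes under these agents, kept their direction and side of the threshold in all alternatives. Of the 42 member results, 42 did so with edgeR and with a pseudocount of 8, 41 with TMM scaling and with the mouse as a replicate block. Across the threshold the block moved only the Lrp1 KLA response in LXR-positive cells (-0.58, adjusted p = 0.055). For Lrp1 with AcLDL it lowered the limma adjusted p from 0.696 to 0.186 in DKO and from 0.21 to 0.052 in LXR-positive cells. With GW3965 the block lowered it from 0.896 to 0.442 in DKO and from 0.836 to 0.212 in LXR-positive cells. The block called 38 genes for AcLDL in DKO and 247 in LXR-positive cells (20 and 36 without it), 268 for GW3965 against AcLDL (87), 20 for the KLA interaction (11) and 0 for GW3965 in DKO (1). Thinned reads turned Vldlr for GW3965 in LXR-positive cells (0.11), genotype under AcLDL (-0.12) and the KLA interaction (0.06), Abcg1 for GW3965 in DKO (-0.0026), and ended Lrp1 for KLA in LXR-positive cells (-0.57). Without a filter Lrp1 for KLA (-0.63 in DKO, -0.58 in LXR-positive cells) and Mylip for GW3965 against AcLDL (0.70) lost their calls. Lrp1 between genotypes was gained under GW3965 with DESeq2 (0.79) and all 24 libraries (0.76), under AcLDL with DESeq2 (0.63), and under KLA with DESeq2 (0.70) and TMM (0.71). DESeq2 also called Lrp1 for AcLDL in LXR-positive cells (0.72), while the fit of all 24 libraries ended the KLA call there (-0.58). The cause was not tested.

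DESeq2 called 26, 87 and 55 genes for GW3965 in DKO, in LXR-positive cells and in the interaction (1, 43 and 19 in limma), 82, 285 and 13 for AcLDL (20, 36 and 4), 49 for the KLA interaction (11), 1803 and 300 between genotypes under KLA and vehicle (1097 and 51) and 145 for GW3965 against AcLDL (87). All 24 libraries gave 67 for AcLDL in LXR-positive cells, 30 for the KLA interaction and 1851 between genotypes under KLA, where no filter gave 731. edgeR called 20 for AcLDL in LXR-positive cells. GW3965 in DKO had 5 calls without a filter, and 0 with edgeR, the pseudocount of 8, thinned reads or all 24 libraries.

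With 1 library left out at a time, Mylip ranged from -0.86 to -0.68 between genotypes under vehicle, -1.13 to -0.74 for the KLA interaction and 0.59 to 0.79 for GW3965 against AcLDL. Lrp1 ranged from -0.76 to -0.51 (DKO) and -0.77 to -0.36 (LXR-positive) for KLA, -0.21 to 0.23, -0.38 to 0.047 and -0.27 to 0.14 for the GW3965, AcLDL and KLA interactions, and 0.56 to 0.98, 0.40 to 0.80 and 0.59 to 0.81 between genotypes under these agents. Vldlr ranged from -0.35 to 0.85 (DKO) and -0.52 to 0.50 (LXR-positive) for GW3965, -0.82 to 0.22 for KLA in LXR-positive cells, -0.24 to 0.96, -0.94 to 0.41 and -0.73 to 0.31 for the interactions, and -0.41 to 0.94 and -0.20 to 0.84 between genotypes under AcLDL and KLA. Abcg1 ranged from -0.082 to 0.13 and Srebf1 from -0.0052 to 0.30 for GW3965 in DKO, and Abca1 from -0.21 to 0.079 and Srebf1 from -0.11 to 0.23 for KLA in DKO, with Abcg1 from -0.26 to 0.081 in LXR-positive cells. Vldlr had 3 to 89 reads per library. With 1 library left out, calls ranged from 452 to 1700, 123 to 1633, 128 to 1186 and 20 to 90 genes between genotypes under GW3965, AcLDL, KLA and vehicle. The planned search of protein sequences was not run.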
